A study of Mus musculus with 12 samples.

Results

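The 9 genes for chains of fibrillar collagens (types I, III and V), type VI collagen and type XIV collagen were followed in the livers of mice fed chow or a high-fat diet (HFD). They were chosen by symbol from the 336 rows of a deposited table of HFD against chow, which holds only genes that the authors' own test had selected. All 9 were found in it: Col1a1, Col1a2, Col3a1, Col5a1, Col5a2, Col6a1, Col6a2, Col6a3 and Col14a1. No other collagen gene was among the rows (0). Because the collagens were picked with their change on HFD in view, the difference between diets is given here as a description. Counts of calls by the authors' test and by other fits are printed below only to describe how the choice of fit moves them, and they support nothing.

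All mice were C57BL/6N and PXR deficient, PXR being the pregnane X receptor, a nuclear receptor that senses foreign compounds and steroids. From an age of 6 weeks, 3 mice were kept on regular chow (mice 670, 695 and 707) and 3 on HFD (mice 659, 669 and 696) for 18 weeks, with no treatment named for either group. The labels name neither the PXR allele nor the sex. All samples analysed here carry the deficiency, chow-fed controls included, and its gene Nr1i2 was not analysed here. Another table compares HFD-fed PXR-deficient mice given PCN, a PXR ligand, at 50 mg/kg or 30% DMSO in corn oil by daily intraperitoneal injection over 4 days, 3 mice each. It lists 33 genes, of which 0 are collagens, so the collagens were not analysed here in injected mice.

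Collagens are built from chains that wind around each other in triple helices. Types I and III form the thick fibrils of connective tissue, type V is built into those fibrils and limits their width, type VI forms beaded filaments close to cells, and type XIV sits on the surface of fibrils. In liver these genes are expressed mainly by stellate cells and portal fibroblasts rather than hepatocytes, and their products build up in fibrosis. In whole-liver RNA, more cells of a type and more RNA per cell cannot be told apart.

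The collagens lie on 6 chromosomes of GRCm38, and 4 of them form pairs of neighbours. Col3a1 (chromosome 1, 45311538 to 45349706, plus strand) and Col5a2 (45374321 to 45503282, minus strand) are separated by 24.6 kb with no annotated gene between them. Col6a2 (chromosome 10, 76595762 to 76623630) and Col6a1 (76708792 to 76726168) lie on the minus strand, 85.2 kb apart, with 1 annotated gene, the non-coding Gm35608, between them. Col6a3, which encodes the longest chain of type VI collagen, is elsewhere on chromosome 1 (90765923 to 90843971). Col1a1 is on chromosome 11 (94936224 to 94953042), Col1a2 on chromosome 6 (4504814 to 4541544), Col5a1 on chromosome 2 (27886425 to 28039514) and Col14a1 on chromosome 15 (55307750 to 55520803). Exons of other annotated genes cover 1.44% of the exon bases of Col3a1 (Gm47302, same strand) and 2.5% of those of Col5a1 (2810430I11Rik and Gm13372, opposite strand), and 0% of the other 7.

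The stretches of 250 bases before the transcript start are shown for the collagen genes with the largest folds that the promoter table holds and for the neighbouring type VI pair. They are from RefSeq (GRCm38.p6), 5′ to 3′ on the strand of the gene. The RefSeq starts used differ from the outer GENCODE ends given above for 3 of them: the Col1a2 window lies inside that gene span, and the Col6a1 and Col6a2 windows overlap theirs. Capitals mark the letters of 5 motifs searched on both strands: TATAAA (the TATA box), CCAAT (the CCAAT box), GGGCGG (the GC box), CAGAC (a SMAD element) and TGACTCA (an AP-1 element).
Col1a2, chr6:4505368-4505617, plus strand: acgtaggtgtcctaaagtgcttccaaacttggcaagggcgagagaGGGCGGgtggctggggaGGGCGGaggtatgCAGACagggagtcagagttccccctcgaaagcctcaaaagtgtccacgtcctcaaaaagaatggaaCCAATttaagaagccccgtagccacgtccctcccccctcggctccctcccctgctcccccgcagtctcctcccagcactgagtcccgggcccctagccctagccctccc
Col3a1, chr1:45311288-45311537, plus strand: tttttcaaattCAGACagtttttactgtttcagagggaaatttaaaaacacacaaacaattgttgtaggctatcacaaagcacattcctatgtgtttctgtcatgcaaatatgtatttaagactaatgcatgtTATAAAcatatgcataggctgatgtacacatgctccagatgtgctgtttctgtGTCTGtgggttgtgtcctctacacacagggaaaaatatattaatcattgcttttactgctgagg
Col6a1, chr10:76726045-76726294, minus strand: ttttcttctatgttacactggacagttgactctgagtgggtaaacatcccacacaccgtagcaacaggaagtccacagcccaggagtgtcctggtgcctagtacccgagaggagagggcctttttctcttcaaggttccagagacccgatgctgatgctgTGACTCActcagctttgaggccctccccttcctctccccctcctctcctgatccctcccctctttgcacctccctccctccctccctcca
Col6a2, chr10:76623405-76623654, minus strand: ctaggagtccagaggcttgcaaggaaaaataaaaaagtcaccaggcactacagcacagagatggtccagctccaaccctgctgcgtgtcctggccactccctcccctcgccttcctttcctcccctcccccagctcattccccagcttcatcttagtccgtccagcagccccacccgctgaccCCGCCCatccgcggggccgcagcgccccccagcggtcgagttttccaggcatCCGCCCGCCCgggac

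No motif searched was in all 4 windows. The Col3a1 window is rich in A and T, with a GC content of 35.2% against 62% for Col1a2, 56% for Col6a1, 64.4% for Col6a2 and a median of 52.4% over all 32851 promoters of the table. In the Col1a2 window GGGCGG begins 205 and 188 bases before the start, CAGAC 175 and CCAAT 109 bases before it. The Col3a1 window holds TATAAA 117 bases before the start and CAGAC on each strand. The Col6a1 window holds TGACTCA 90 bases before the start, and that of its neighbour Col6a2 holds GGGCGG on the other strand at 67, 15 and 11 bases, the last 2 overlapping. The table held 7 windows for 6 of the 9 collagens (Col6a2 has 2 starts in it; Col1a1, Col5a2 and Col14a1 were not matched). CAGAC was in 5 of the 7 windows and in 42.2% of all promoters over the same 250 bases. GGGCGG was in 4 (32.7% of all promoters), and CCAAT (33.8%), TATAAA (12.4%) and TGACTCA (4.46%) were in 1 each. These matches describe letters and say nothing of a factor bound there.

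Every collagen was higher on HFD, by 1.80-fold for Col5a1 to 7.61-fold for Col1a1, with a median of 2.67-fold. The median over all 215 rows called higher on HFD was 2.30-fold. All 9 had an adjusted p under 0.05 in the authors' deposited table, as do 100% of its rows, of which 64% are higher on HFD. About 1.62% of the 24980 genes tested reached the level of the last row. Of the collagens 8 of 9 were under 0.01 in the authors' deposited table (38.7% of the rows were under it and higher on HFD), and 6 of 9 passed a Bonferroni threshold over all genes tested (17% of the rows). In each of the 9 genes the lowest HFD mouse lay above the highest chow mouse, as in 63.7% of all rows and 99.5% of the rows called higher. These shares follow from how the rows and the collagens were chosen. Values below are normalized counts, that is, reads divided by the size factor of the library. Counts summed over the listed rows ran from 547431 to 920106 per mouse and size factors from 0.829 to 1.14.

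**Figure D1:**
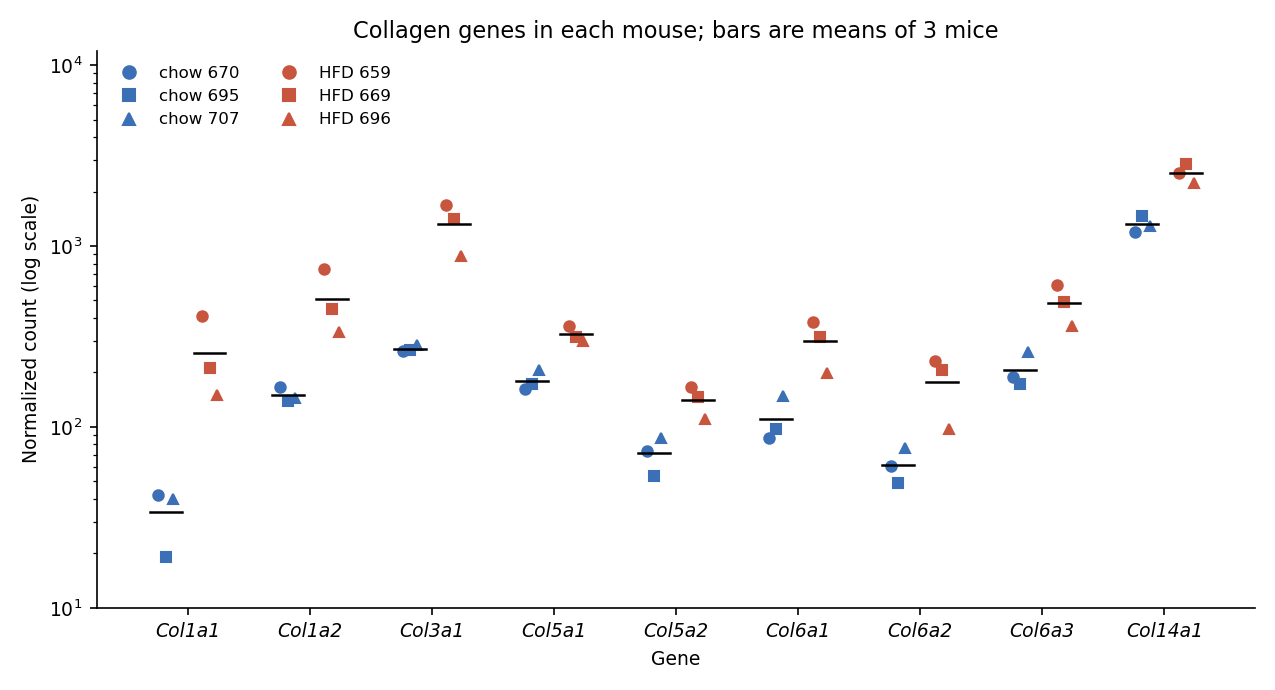
Normalized count (log axis) of each collagen gene in each of 3 chow-fed (blue) and 3 HFD-fed (red) mice, with black bars at the group means. In each of the 9 genes the red points lie above the blue ones, and in 8 of the 9 genes mouse 659 (red circle) is the highest point.

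The type I chains, the bulk of scar collagen, differed from each other in how far they moved. Col1a1, which encodes the α1 chain, was at 42.0, 19.2 and 39.8 in chow mice 670, 695 and 707 and at 408.5, 211 and 149 in HFD mice 659, 669 and 696. The lowest HFD mouse was thus 3.56 times the highest chow mouse, with 20 to 43 raw reads in each chow mouse. The means were 33.7 ± 12.6 and 256 ± 135 (SD, n = 3 each), and the edgeR log2 fold change was 2.93 (SE 0.43). Col1a2, for the α2 chain, was at 166, 139 and 144 on chow and at 747, 451 and 334 on HFD. Chow mice lay close together and HFD mouse 659 stood above the other two HFD mice. The means were 149.6 ± 14.4 and 511 ± 213 (SD, n = 3 each), a ratio of 3.41 and an edgeR log2 fold change of 1.77 (SE 0.29).

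Col3a1, the single gene of type III collagen, the more pliable fibril collagen of early scar and vessel walls, had the tightest chow values of the 9. It was at 262, 266 and 282 in chow mice and at 1691, 1407 and 879 in HFD mice 659, 669 and 696. Its SD was 4.03% of the mean on chow and 31.1% on HFD. The ratio of means was 4.91 and the edgeR log2 fold change 2.30 (SE 0.26). In the authors' deposited table its log2 fold change was 1.96 (SE 0.2) and it ranked 3 by p among all rows.

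The type V chains had the smallest ratios of the fibrillar collagens. Col5a1 was at 162, 172 and 205 in chow mice and at 361, 314 and 297 in HFD mice. Its groups were separate, and its HFD mice differed by only 1.22-fold from lowest to highest. Col5a2, the partner chain, was at 73.3, 53.8 and 86.9 on chow and 166, 146 and 111 on HFD. Here the lowest HFD mouse was 1.28 times the highest chow mouse, the narrowest gap of the 9. In the authors' deposited table Col5a2 also had the largest adjusted p of the collagens, 0.0325, against 0.0474 for the last row, Mmp2; genes beyond that row were not analysed here. The edgeR log2 fold changes were 0.85 (SE 0.20) for Col5a1 and 0.99 (SE 0.28) for Col5a2. Although Col5a2 adjoins Col3a1, its ratio of means was 1.98 against 4.91.

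The 3 type VI chains had ratios between 2.36 and 2.88. Col6a1 was at 87.0, 97.9 and 148 in chow mice and at 379.5, 313 and 199 in HFD mice 659, 669 and 696. Chow mouse 707 was the highest of its group for all 3 chains and HFD mouse 696 the lowest of its own, and no group overlapped. Col6a2 was at 60.6, 49.0 and 76.0 on chow and at 231, 206 and 97.6 on HFD, so mouse 696 stood well below the other two. Col6a3 was at 188, 173 and 258 on chow and at 607, 492 and 361 on HFD. The edgeR log2 fold changes were 1.42 (SE 0.30), 1.53 (SE 0.35) and 1.24 (SE 0.25) for Col6a1, Col6a2 and Col6a3, and these values overlap within 1 SE.

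Col14a1, the gene of the fibril-associated type XIV collagen, had the most reads and, with Col5a1, the least spread on HFD. It was at 1197, 1470 and 1288 in chow mice and at 2522, 2833 and 2225 in HFD mice. It was the one collagen with mouse 669 and not 659 on top. The means were 1318 ± 139 and 2527 ± 304 (SD, n = 3 each), a ratio of 1.92, and the edgeR log2 fold change was 0.94 (SE 0.20).

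**Figure D2:**
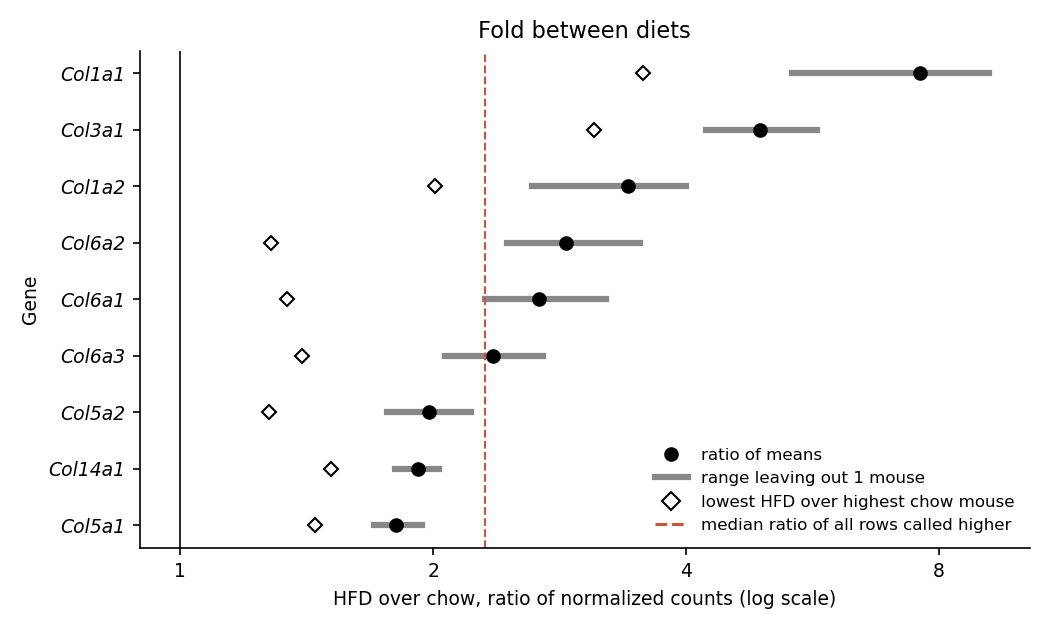
Ratio of HFD to chow mean normalized counts (black dots, log axis) for each collagen gene, with the range when 1 of the 6 mice is left out (grey bars), the lowest HFD over the highest chow mouse (diamonds) and the median ratio of all rows called higher (dashed line, 2.30). Col1a1 and Col3a1 stand to the right, while Col5a1, Col14a1 and Col5a2 lie left of the dashed line.

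The order of the folds was Col1a1, Col3a1, Col1a2, Col6a2, Col6a1, Col6a3, Col5a2, Col14a1 and Col5a1. When 1 mouse at a time was left out, Col1a1 ran from 5.35 to 9.20, Col3a1 from 4.23 to 5.74 and Col1a2 from 2.62 to 4.0, so the range of Col3a1 overlapped that of Col1a1 and not that of Col1a2. The authors' deposited table gives smaller changes and another order at the top: its log2 fold changes were 1.96 for Col3a1, 1.95 for Col1a1 and 1.42 for Col1a2, and the order of Col14a1 (0.87) and Col5a2 (0.8) is also turned. For Col1a1 that compares with 2.93 on the log2 scale in the edgeR fit. Ranges overlapped among the type VI chains (2.07 to 3.53 in all) and among Col5a2, Col14a1 and Col5a1 (1.70 to 2.22 in all). The log2 folds of Col1a1 and Col5a1, at the ends of the order, were 2.93 and 0.85 with SEs of 0.43 and 0.20. Among the 215 rows higher on HFD, Col1a1 ranked 19 by fold and Col5a1 ranked 175.

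In the authors' deposited table every collagen was called. Refitting edgeR to the listed rows, adjusted over all genes tested, put 1 of the 9 under an adjusted p of 0.05. That gene was Col3a1, and 2.38% of the rows were called higher in the same fit. The 68 genes not held make this adjustment approximate. By edgeR the count of 1 became 0 without chow mouse 670, 695 or 707 or HFD mouse 659 or 669. Those fits called between 1 and 7 of all rows higher. With TMM scaling and adjustment over the rows alone edgeR gave 5 of 9, against 19.9% of the rows. DESeq2 refitted to the rows gave 7 of 9, against 31.8%.

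The HFD mice differed among themselves in the same sense in most collagens. Mouse 659 was highest, 669 next and 696 lowest in 8 of 9 genes, and mouse 696 was lowest in all 9. The same order was seen in 19.5% of the rows higher on HFD, which include these 8. Mouse 659 was the highest HFD mouse in 44.7% of those rows, and the share with mouse 696 lowest was not counted. The order depends in part on the size factors. In HFD mice 659, 669 and 696 the raw reads were 400, 292 and 338 for Col5a1 and 2791, 2632 and 2530 for Col14a1. Relative to the mean of the other two HFD mice, mouse 659 was at 2.27 for Col1a1, 1.90 for Col1a2, 1.53 for Col6a2, 1.48 for Col3a1 and Col6a1, 1.42 for Col6a3, 1.29 for Col5a2, 1.18 for Col5a1 and 0.997 for Col14a1. The median of this ratio over all rows higher on HFD was 1.05. The median SD was 30.8% of the mean on HFD for the collagens, against 18.7% for all rows higher on HFD, while on chow it was 22.0% and 23.3%. Without mouse 659 the ratios between diets were 5.35 for Col1a1, 4.23 for Col3a1 and 2.62 for Col1a2. The 9 genes were measured in the same 3 livers and are not separate replicates of this order.

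Levels can be compared between genes only per length, so counts were divided by the kb of the longest protein-coding transcript. On that scale Col14a1 led in both groups, at 204 ± 21.5 on chow and 391 ± 47.1 on HFD (SD, n = 3 each, normalized counts per kb), followed by Col3a1 at 48.5 ± 1.96 and 238 ± 74.0. Col1a2 (28.0 ± 2.70) and Col6a1 (27.1 ± 8.0) came next on chow and did not differ beyond their spread. Neither did Col5a1 (21.4 ± 2.68) and Col6a3 (20.4 ± 4.52), nor Col6a2 (13.3 ± 2.92) and Col5a2 (10.8 ± 2.51). Col1a1 was the lowest at 5.68 ± 2.12. On HFD Col1a1 stood at 43.2 ± 22.8, between Col6a3 (48.1 ± 12.2) and Col5a1 (38.6 ± 3.96), with Col1a2 at 95.5 ± 39.8, Col6a1 at 72.5 ± 22.3, Col6a2 at 38.3 ± 15.2 and Col5a2 at 21.3 ± 4.24.

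**Figure D3:**
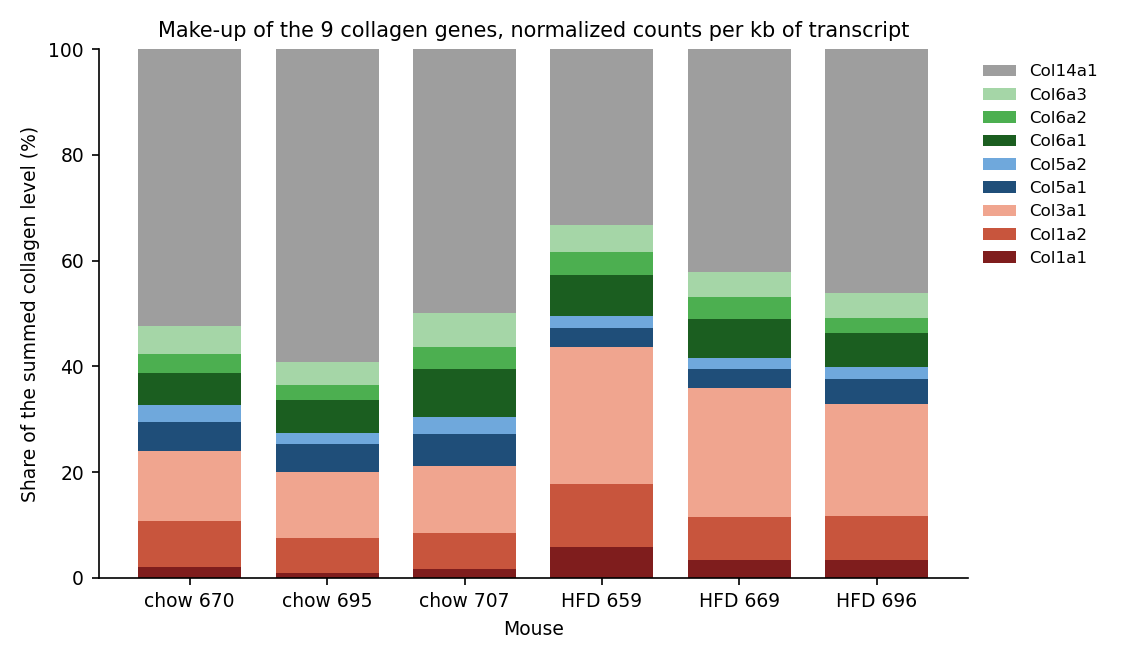
Share (percent) of each collagen gene in the summed level of the 9, in normalized counts per kb of the longest protein-coding transcript, for each of the 6 mice. The Col14a1 block (grey) is smaller and the Col3a1 block (light red) larger in each HFD mouse than in any chow mouse.

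The order of the middle genes depends on the length. Per kb of the union of exons, the length first planned, Col1a2 on chow was at 12 ± 1.16, below Col6a1 (25.4 ± 7.49), Col5a1 (21.2 ± 2.66) and Col6a3 (17.2 ± 3.82). By that length too Col14a1 and Col3a1 had the highest mean levels and Col1a1 the lowest on chow, with Col3a1 (27.5 ± 1.11) and Col6a1 within their spread.

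The make-up of the collagen transcripts differed between the diets. The sum of the 9 levels was 379 ± 23.3 per kb on chow and 987 ± 218 on HFD (SD, n = 3 each). Col14a1 made up 52.4%, 59.2% and 49.9% of it in the chow mice and 33.3%, 42.2% and 46.1% in HFD mice 659, 669 and 696. Col3a1 made up 13.3%, 12.4% and 12.7% on chow and 25.9%, 24.3% and 21.1% on HFD. Neither gene's shares overlapped between the groups, and the same held when the union of exons or the coding length was used. Type I chains together went from 8.93 ± 1.65% to 13.7 ± 3.55% and type V chains from 8.47 ± 0.99% to 6.16 ± 0.70%, again without overlap. Taken singly, the shares of Col1a1 and Col5a1 did not overlap between the groups, and those of Col1a2 and Col5a2 did. The type VI share stayed within its spread, at 16 ± 3.21% on chow and 15.9 ± 1.63% on HFD. Shares do not depend on the size factors, and a smaller share of Col14a1 is not a lower level: its normalized count was higher on HFD.

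Ratios between the chains of 1 collagen type were taken within each mouse, where the scaling of the library cancels. Of the pairs taken, only the type I pair had ratios that did not overlap between the diets. The share of other pairs of rows without overlap was not counted, so this cannot be set against it. Reads of Col1a1 per read of Col1a2 were 0.253, 0.138 and 0.277 in chow mice 670, 695 and 707 and 0.547, 0.468 and 0.447 in HFD mice 659, 669 and 696. Means were 0.223 ± 0.074 and 0.487 ± 0.052 (SD, n = 3 each), a ratio of 2.19 between the diets that ran from 1.84 without chow mouse 695 to 2.49 without chow mouse 707. As a share of the reads of both chains, Col1a1 took 20.2% of 213 reads in chow mouse 670 (exact 95% interval 15.0% to 26.2%), 12.1% of 165 in mouse 695 (7.56% to 18.1%) and 21.7% of 152 in mouse 707 (15.4% to 29.1%). In the HFD mice it took 35.3% of 1279 reads (32.7% to 38.0%), 31.9% of 615 (28.2% to 35.7%) and 30.9% of 550 (27.1% to 35.0%). The interval of chow mouse 707 overlaps those of HFD mice 669 and 696, and the lowest HFD share lies above the highest chow share.

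The absolute level of that ratio depends on the length used. Its change between diets cannot, because a length multiplies the ratio by the same factor in every mouse. Per kb of the union of exons it was 0.422 on chow and 0.923 on HFD, per kb of coding sequence 0.210 and 0.460, and per kb of the longest coding transcript 0.201 and 0.439. The union counts 12426 bases for Col1a2, retained introns included, against 5348 bases in its longest coding transcript. The type I protein holds more α1 than α2 chains, and by the coding and longest-transcript lengths the transcripts of Col1a1 were the fewer in every mouse.

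**Figure D4:**
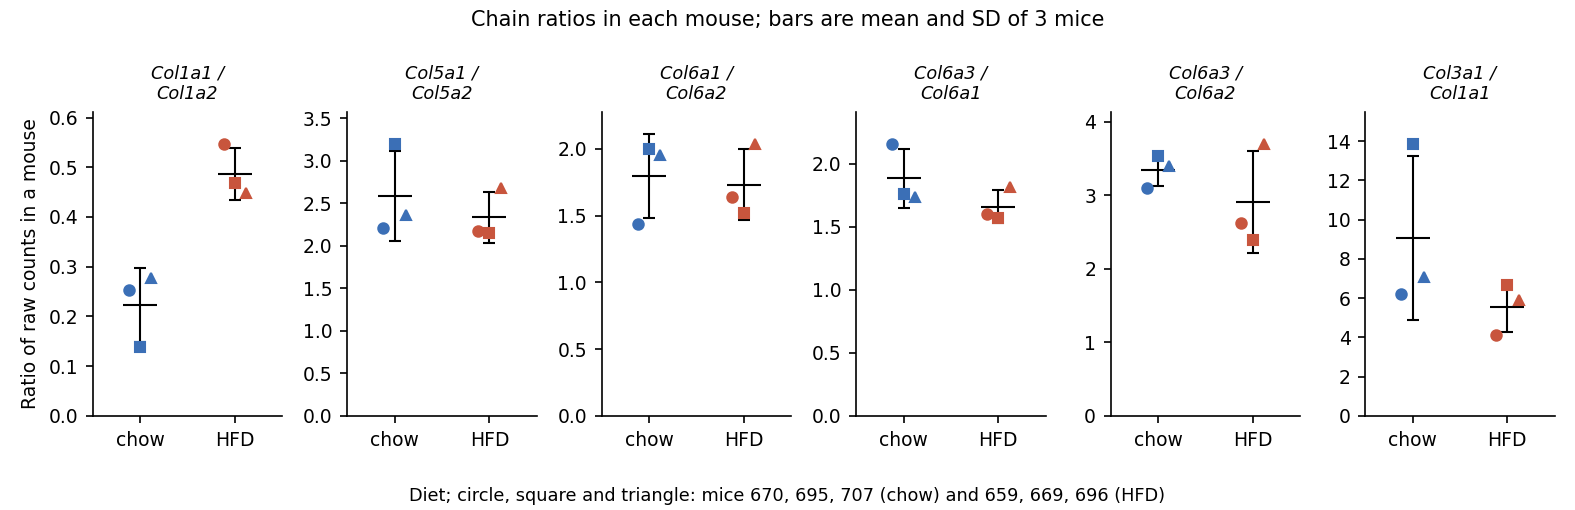
Ratio of raw counts of 2 collagen genes in each chow-fed (blue) and HFD-fed (red) mouse, with mean and SD of 3 mice, for 5 pairs within a type and for Col3a1 to Col1a1. The groups are apart for Col1a1 to Col1a2 (0.138 to 0.277 against 0.447 to 0.547) and overlap for the other 5 pairs.

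In types V and VI the ratios overlapped between the diets. Reads of Col5a1 per read of Col5a2 were 2.59 ± 0.53 on chow and 2.33 ± 0.30 on HFD (SD, n = 3 each). For Col6a1 to Col6a2, the neighbours on chromosome 10, they were 1.80 ± 0.31 and 1.73 ± 0.27. Col6a3 to Col6a1 gave 1.89 ± 0.23 and 1.66 ± 0.13, and Col6a3 to Col6a2 gave 3.34 ± 0.22 and 2.90 ± 0.69. Each of these differences was within the sum of both SDs, which with 3 mice per group does not show that the ratios were equal. Between types, Col3a1 per Col1a1 read was 6.23, 13.9 and 7.09 in chow mice and 4.14, 6.67 and 5.88 in HFD mice. The groups overlapped, the high chow value being that of mouse 695 with its 20 reads of Col1a1.

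Genes that make, bind, cut or induce collagen were taken from lists and counted by the authors' calls, and the table of selected rows tells nothing about list members outside it. The rows are 336 of about 24980 genes tested, and 64% of them were higher on HFD. Of 31 genes of collagen synthesis, folding and crosslinking 2 were among the rows, both higher on HFD. Serpinh1, which encodes the collagen chaperone HSP47, was at 103, 163 and 138 on chow and 237, 284 and 288 on HFD, a ratio of 2.0. Sparc, which encodes a collagen-binding matrix protein, was at 568 ± 80.9 and 971 ± 121 (SD, n = 3 each), a ratio of 1.71. In neither gene was mouse 659 the highest.

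Of 26 fibril-associated proteoglycans and glycoproteins 6 were among the rows. All 6 were higher on HFD, as were 64% of all rows, with a median of 2.62-fold for the 6. They were the fibulin genes Fbln2 (3.98-fold) and Fbln5 (1.98-fold), the thrombospondin gene Thbs1 (3.35-fold), the tenascin genes Tnc (2.99-fold) and Tnxb (2.25-fold) and the fibrillin gene Fbn1 (1.68-fold). Fbln2 went from 34.1 ± 7.72 to 136 ± 7.77 (SD, n = 3 each). Tnxb overlapped between the diets, at 190, 286 and 416 on chow and 804, 795 and 409 on HFD, with mouse 696 low as in the collagens. Of 14 collagen receptor and uptake genes 0 were among the rows.

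Of 17 genes of collagen degradation 2 were among the rows, both higher, as were 64% of all rows. Mmp2, a gelatinase gene, was at 30.3, 24.0 and 21.7 on chow and 82.2, 65.7 and 41.3 on HFD. Mmp12, a macrophage elastase gene, was at 12.7, 7.68 and 12.1 on chow and 82.2, 47.4 and 24.6 on HFD. Both showed the order 659, 669, 696 of the collagens. So did Tnc, Tnxb, Fbln2, Fbln5 and Vim, the last from the stellate cell and myofibroblast list, and the other list genes among the rows did not. Of 21 symbols of TGF-beta ligands, receptors and targets, among which Ccn2 and Ctgf name the same gene, 2 were higher and 1 lower. Tgfbi, a TGF-beta-induced matrix protein gene, was at 709 ± 100.5 on chow and 1151 ± 213 on HFD (SD, n = 3 each), a ratio of 1.62. The activin subunit genes went apart: Inhbe was 2.31-fold higher and Inhba 2.46-fold lower on HFD.

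**Figure D5:**
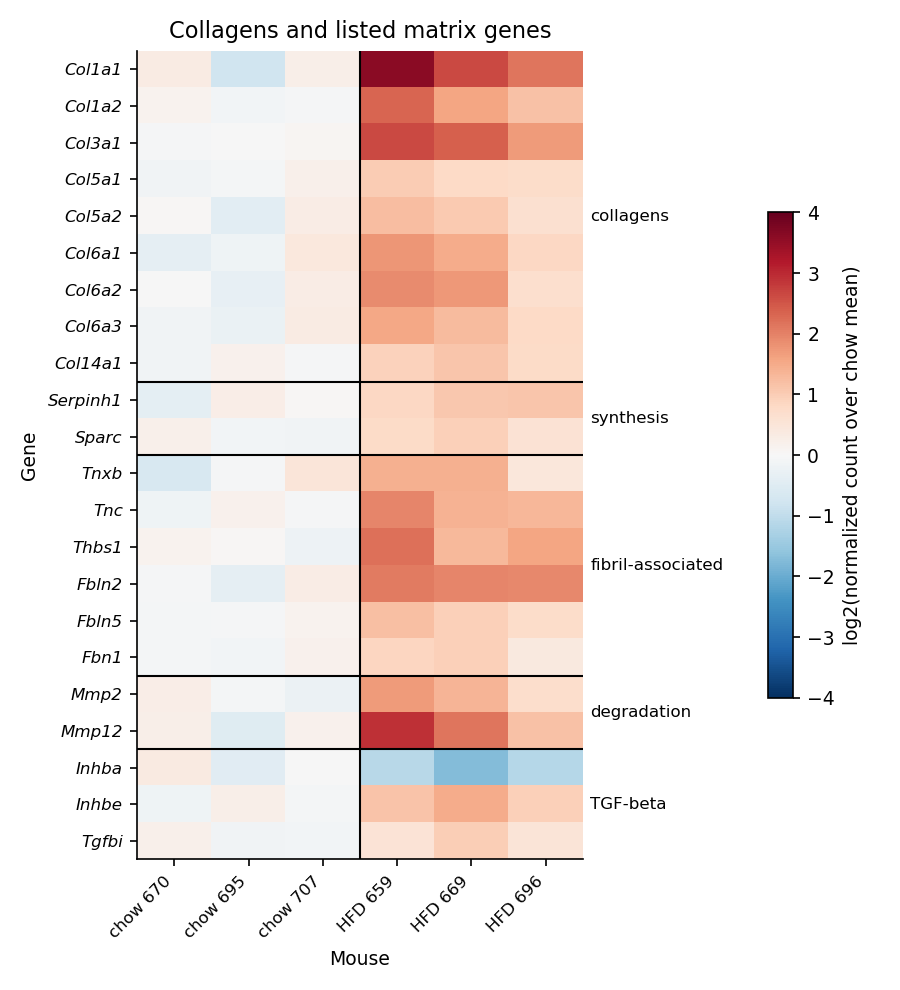
Log2 ratio of each mouse's normalized count to the chow mean (colour, blue lower, red higher) for the 9 collagens and the matrix and TGF-beta genes of the lists that were among the rows. Inhba is the one gene with blue HFD columns, and Col1a1 and Mmp12 in mouse 659 are the darkest red.

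Few of the cell type markers were among the rows, and their part in the collagen values was not tested. Of 13 stellate cell and myofibroblast markers 1 was among the rows, Vim, at 208 to 262 on chow and 308 to 416 on HFD. The others, Acta2, Des and Pdgfrb among them, were not analysed here. Of 8 portal fibroblast markers 1 was listed, Fbln2. Of 10 macrophage markers 2 were listed, Mmp12 and Itgax, the latter at 3.91 to 13.3 on chow and 30.1 to 46.6 on HFD. Of 5 T cell markers 1 was listed, Themis, at 13.3 to 58.6 on chow and 306 to 372 on HFD. Mup20, 1 of 6 hepatocyte markers, was abundant in all mice (5639 to 13282) and lower on HFD, and 0 of 4 mesothelial, 3 smooth muscle, 7 endothelial, 5 cholangiocyte and 3 adipocyte markers were listed.

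The rows whose pattern over the 6 mice lay nearest the mean collagen profile were Tnc, Mmp2, Smoc2, Pcdh7 and Gm43072. Likeness was the root mean square difference of log2(normalized count + 0.5), centred on the mean of each gene, and it was 0.23, 0.25, 0.26, 0.27 and 0.29 for these genes. The collagens themselves lay between 0.16 for Col6a3 and 0.75 for Col1a1, the latter because of its larger fold. Smoc2, which encodes a matricellular calcium-binding protein, was at 43.0, 51.8 and 50.7 on chow and 124, 116 and 87.1 on HFD. Pcdh7, a protocadherin gene, was at 37.6 ± 7.20 and 85.6 ± 17.7 (SD, n = 3 each). Gm43072, a predicted gene, was at 16.4 ± 2.46 and 47.4 ± 4.57. All 5 have a ratio between 2.25 and 2.99, and the measure favours ratios near the collagen mean.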

How the data were processed

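Liver RNA of 3 chow-fed and 3 HFD-fed mice was used. The deposited counts are whole raw reads per gene and mouse, per the file headers, beside the authors' own statistics (a mean, a log2 fold change with its error, a raw and an adjusted p-value). The submitters' processing notes name HISAT2, HTSeq, DESeq2 and the build GRCm38. Versions and any use of strand in counting are not stated in the labels or headers. Every one of the 336 rows has a deposited adjusted p no larger than 0.0474 and a log2 change of 0.6 or more in size. The relation of p to adjusted p gives about 24980 genes tested by the authors and a rank of 404 for the last row, and 68 better ranked genes are not held. Total library depth is therefore unknown.

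Size factors, the scaling of each library, were solved from the authors' mean column, with a largest gap of 0.00509 counts, and normalized counts are counts divided by them. A fold is the HFD mean over the chow mean of normalized counts. The collagens were proposed, and all lists chosen, with earlier results of these data known, so the difference between diets is described, and counts of calls support nothing. edgeR 4.0.16 (quasi-likelihood fit to all listed rows with the solved size factors, filterByExpr, Benjamini-Hochberg adjustment over all 24980 genes, R 4.3.3) supplied log2 folds with standard errors and an alternative count, and DESeq2 1.42.0 a further one. The fit was also run on simulated counts with a common dispersion for all rows, which the real rows need not share. That run is not used to judge any count of calls. Lengths and positions come from GENCODE M21 on GRCm38, 1-based, in which all 336 IDs were found; deposited starts count from 0. Promoters come from RefSeq (GRCm38.p6). Counts per kb used the union of exons as planned. The longest protein-coding transcript was added after retained introns were seen in that union, and levels between genes are given on it.

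Named were all 9 collagens, the members of the chosen lists (synthesis, fibril-associated, receptors, degradation, TGF-beta, other collagens, cell type markers) among the rows, and the 5 other rows nearest the mean collagen profile. A listed gene is not reported here and was left out of its list. Alternatives were other scalings, group summaries, thresholds, tests and lengths, and leaving out each mouse. The labels name 1 mouse per library. Intervals for shares of counts are exact (Clopper-Pearson, 95%) and cover counting error only.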

Additional observations from a re-analysis of the deposited data

How the results depend on the processing

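Of the alternatives, a change of scaling moved the median collagen fold most, which was 2.67 with the solved size factors. The authors' deposited log2 fold changes gave a median of 2.17-fold. TMM and DESeq2's median of ratios were both computed on rows selected for having changed. By the geometric means of their scaling factors, they shifted HFD against chow by -0.64 and -0.66 on the log2 scale. The median collagen fold became 1.70 and 1.68, and 4 of 9 genes had no overlap between diets under each (Col1a1, Col1a2, Col3a1 and Col14a1). The share of all rows without overlap under these scalings was not counted, so the 4 of 9 cannot be set against it. All 9 collagens remained higher on HFD under both, at 1.16-fold or more with TMM and 1.14-fold or more with the median of ratios. The authors' calls numbered 9, and a DESeq2 refit to the rows gave 7. A change of test to edgeR, with the solved size factors and adjustment over all genes tested, gave 1. Against that 1, edgeR gave 1 without its filter, 0 to 1 leaving out each mouse, and 5 with TMM and adjustment over the listed rows alone. Leaving out each mouse moved the ratio between diets of Col1a1 to Col1a2 from 1.84 to 2.49, of Col5a1 to Col5a2 from 0.834 to 1.02 and of Col3a1 to Col1a1 from 0.531 to 0.835, with the last 2 highest without chow mouse 695. The low chow reads of Col1a1 limit both ratios that hold it.
No paired analysis was possible. The replicate numbers differ between the chow and HFD mice, and the labels name nothing else that links a mouse of one diet to a mouse of the other.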
